A study of Mus musculus with 4 samples.

Results

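Enrichment of each mRNA with Caprin-1 was compared between 4T1 cells with and without knockdown of the ceramide synthase CerS4. For each gene, the log2 ratio of its level in the Caprin-1 precipitate over its level in the IgG precipitate was taken in each cell line, and the ratio of the control line was subtracted from that of the knockdown line. A positive log2 difference therefore means a higher Caprin-1 over IgG ratio in the knockdown cells, and a negative one a lower ratio. Levels were in CPM, the reads of a gene scaled to the same total in each library. The comparison covered the 10283 of 12967 genes whose mean level reached 5 CPM. All 4 libraries of the series entered the comparison.

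The 4 groups had 1 library each. They were the IgG and the Caprin-1 precipitate of cells stably carrying SCR shRNA (shSCR, the control line) and the same 2 precipitates of cells stably carrying CerS4 shRNA (shCerS4). All were 4T1, an established mouse mammary carcinoma line, kept in medium with 4 µg/mL puromycin, and each library was built from 500 ng of total RNA, for mRNA. Whether either line was grown from a clone, and the age of the cultures, are not given in the sources used here. Input RNA was not analysed here, and CPM are shares, so neither the level in the cells nor the amount of RNA recovered by each antibody was measured. With 1 library per group no significance test could be made. In its place each log2 difference carries a 95% counting interval, written in brackets after it, which covers the counting of reads and nothing else. "Higher" and "lower" below describe these libraries.

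Caprin-1 is a cytoplasmic RNA-binding protein that associates with G3BP1, G3BP2 and FMRP and takes part in the transport and translational control of mRNAs and in the assembly of stress granules, the bodies into which untranslated mRNA and proteins gather under stress. CerS4 joins a fatty acyl chain to a sphingoid base and thereby makes ceramide, the parent lipid of sphingomyelin and glycosphingolipids. Cd274 encodes PD-L1, a ligand that restrains T cells. The study asked what its complex with Caprin-1 does to mRNA binding when lipid metabolism is altered.

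Estimated depths ran from 19.7 to 27.0 M reads. Cers4, the knockdown target, and Shh were not analysed here, so the knockdown itself was not checked. All 11 mammary epithelial markers passed the filter, and their summed level was 5421 to 10314 CPM in the 4 libraries. Of 13 leukocyte markers 3 had values, summing to 26.8 to 88.2 CPM. Of 8 fibroblast markers 5 had values, summing to 20.8 to 62.5 CPM, and of 6 endothelial markers 1 did, at 0.666 CPM in the shSCR IgG library and 0 in the other libraries. The shSCR IgG library stood apart in 1 respect. It held 35 genes above 2 CPM that were over 4 times every other library, against 1 such gene in each Caprin-1 library and 6 in the IgG library of shCerS4 cells. These genes are described below with the results they touch.

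The Caprin-1 over IgG ratio spread less widely over genes in the knockdown cells. The standard deviation of the log2 ratio over genes was 0.68 in shSCR cells and 0.58 in shCerS4 cells, with interquartile ranges of 0.949 and 0.797. The median ratio was close to 0 in both, at −0.13 and −0.11. The log2 difference between the lines had a median of 0.04, quartiles of −0.15 and 0.23, and 90% of genes between −0.46 and 0.55. Its median distance to the end of the counting interval was 0.191. Caprin-1 stood above IgG, with an interval that excluded 0, for 3520 genes (34.2%) in shSCR cells and 3348 genes (32.6%) in shCerS4 cells, and below IgG for 5032 (48.9%) and 4858 (47.2%).

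**Figure D1:**
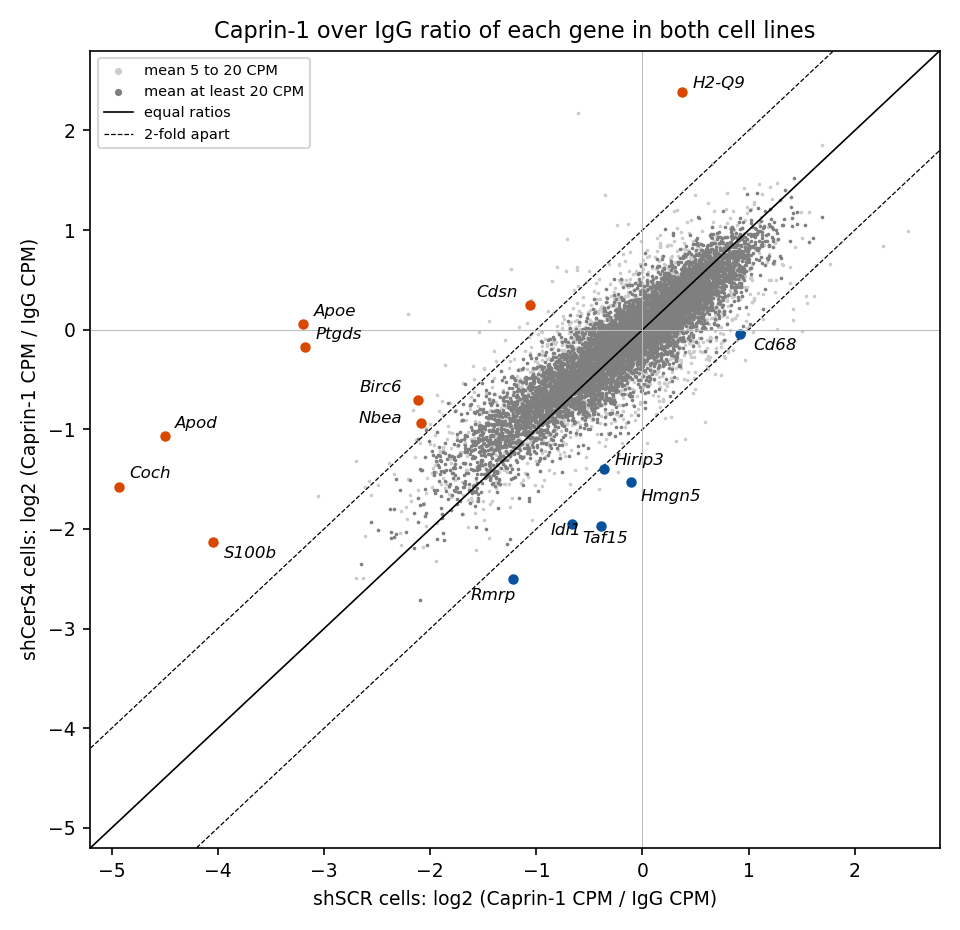
Log2 Caprin-1 over IgG ratio of each of the 10283 genes in shSCR cells (horizontal axis) and shCerS4 cells (vertical axis), 1 library per group. Grey points are genes, the solid line marks equal ratios and the dashed lines a 2-fold difference. Most genes lie between the dashed lines. Ptgds, Apod, Coch, Apoe and S100b stand far above them on the left, where the ratio in shSCR cells was below −3, and Taf15, Hmgn5 and Idi1 stand below them.

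Few genes differed by as much as 2-fold. With an interval that excluded 0, the ratio was higher at least 2-fold in shCerS4 cells for 65 genes (0.632% of those compared) and lower for 36 (0.35%). Low genes made up most of these, with 57 of the 65 and 33 of the 36 under a mean of 20 CPM. Among the 7727 genes at or above 20 CPM, 8 (0.104%) were higher and 3 (0.0388%) lower. At the milder threshold of 1.5-fold, 435 genes (4.23%) were higher and 268 (2.61%) lower, of which 176 (2.28% of the genes at or above 20 CPM) and 89 (1.15%) reached 20 CPM. With no threshold of size, intervals excluded 0 for 2990 genes (29.1%) on the higher side and 2133 (20.7%) on the lower side, and these shares are the background against which the gene lists below are read.

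Most of the genes on the higher side were below IgG in both lines. Of the 435 genes higher by 1.5-fold, 283 were below IgG in both lines and nearer to it in shCerS4 cells, 120 went from below IgG in shSCR cells to above it in shCerS4 cells, and 32 were above IgG in both. Of the 268 lower genes, 132 went from above IgG in shSCR cells to below it in shCerS4 cells, 68 were above it in both and 68 below it in both. The Caprin-1 level was higher and the IgG level lower in shCerS4 than in shSCR cells for 189 of the 435, while the other members of this set moved the same way in both precipitates. The reverse held for 112 of the 268. Over all 10283 genes compared, 5165 (50.2%) were below IgG in both lines against 65.1% of the 435 and 25.4% of the 268, 740 went from below to above IgG and 713 from above to below. The Caprin-1 level was higher and the IgG level lower in shCerS4 cells for 1065 of all genes, and the reverse held for 701. Genes that cross IgG or move in opposite ways in the precipitates are favoured by the choice on the difference, so these shares are a description.

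The genes with the lowest differences at 20 CPM or more were Hmgn5, Taf15 and Hirip3, the 3 that were lower by 2-fold. Hmgn5 (chrX:109004537-109013380, GRCm38) encodes a protein that binds nucleosomes and loosens chromatin. In shSCR cells Hmgn5 had 35.0 CPM in the IgG and 32.4 CPM in the Caprin-1 library, and in shCerS4 cells 59.0 and 20.4 CPM. The 2 shSCR libraries were close to each other, while in shCerS4 cells the IgG library was the highest of the 4 and the Caprin-1 library the lowest. Its log2 ratio was thus −0.11 in the control line and −1.53 in the knockdown line, a difference of −1.42 [−1.63, −1.21], or 2.68-fold. Taf15 (chr11:83473073-83506743) encodes an RNA-binding protein of the FET family. The level of Taf15 was 185 CPM (IgG) and 117 CPM (Caprin-1) in shSCR cells, against 363 and 93.9 CPM in shCerS4 cells. Here too the shCerS4 IgG library was the highest and the shCerS4 Caprin-1 library the lowest, and the difference was −1.29 [−1.38, −1.19]. Hirip3 (chr7:126861929-126865377) encodes a protein that interacts with the histone chaperone HIRA. For Hirip3 the IgG libraries read 78.6 CPM (shSCR) and 46.2 CPM (shCerS4), and the Caprin-1 libraries 61.0 and 17.5 CPM. Both shCerS4 libraries were below both shSCR libraries, the Caprin-1 library more so, with a difference of −1.04 [−1.23, −0.84].

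Hmgn5 and Hirip3 belong to a list of nucleosome-binding and histone chaperone proteins. Of its 33 genes compared, both of these included, 22 had an interval below 0 and 1 above it, 5 were lower by 1.5-fold and none higher, and the median difference was −0.18, against 0.04 over all genes. The list's median log2 ratio was 0.16 in shSCR and −0.20 in shCerS4 cells. Anp32a and Anp32b encode acidic proteins that bind histones and inhibit acetyltransferases. Anp32b stood at 708 CPM with IgG and 594 CPM with Caprin-1 in shSCR cells, and at 718 and 365 CPM in shCerS4 cells. The other libraries lay nearer to each other and the shCerS4 Caprin-1 library was the low one, at a difference of −0.72 [−0.77, −0.67]. In shSCR cells Anp32a had 152 CPM in the IgG and 187 CPM in the Caprin-1 library, and in shCerS4 cells 201 and 145 CPM. Its ratio crossed from above to below IgG, with a difference of −0.77 [−0.86, −0.68]. Hmgn3, a relative of Hmgn5, had a difference of −0.69 [−0.94, −0.45]. H3f3b, which encodes the replacement histone H3.3 and was the most abundant of the list, had values near equality, with −0.03 [−0.06, −0.00]. Histone methyl and acetyl modifying enzymes, which act on the same substrate, did not share this direction: their median was 0.11, with 16 of 55 intervals above 0 and 6 below, and Kdm3b, a histone demethylase, stood at 0.81 [0.60, 1.01].

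**Figure D2:**
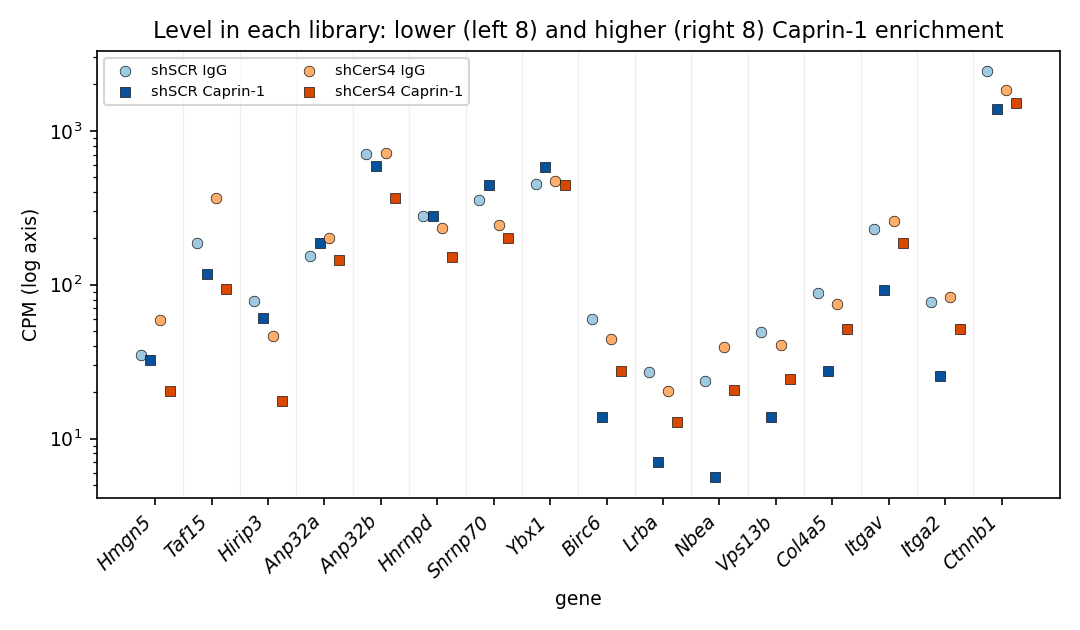
Level in CPM (log axis) of 16 genes in the 4 libraries, with circles for IgG and squares for Caprin-1 precipitates, blue for shSCR and orange for shCerS4 cells. For the 8 genes on the left the shCerS4 Caprin-1 square lies lower against its IgG circle than in shSCR cells, as for Taf15 at 93.9 against 363 CPM. For the 8 on the right, from Birc6 on, it lies nearer to its IgG circle.

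Among mRNAs of RNA-binding proteins, the list of FET and other prion-like RNA-binding proteins, which holds Taf15, had a median of −0.18 over 16 genes, with 8 intervals below 0 and 3 above. Tardbp, which encodes TDP-43, was on the other side at 0.32 [0.22, 0.41]. Of 62 genes of splicing factors and snRNP proteins, 31 intervals lay below 0 and 9 above, 4 were lower by 1.5-fold and none higher, with a median of −0.09. Those 4 were Snrpg, Snrpf, Snrnp70 and Hnrnpd. The level of Snrnp70 was 354 CPM (IgG) and 441 CPM (Caprin-1) in shSCR cells, against 246 and 200.2 CPM in shCerS4 cells. This gene encodes a protein of the U1 particle, which marks the start of introns, and its ratio crossed from above to below IgG with a difference of −0.61 [−0.69, −0.54]. For Hnrnpd the IgG libraries read 279.7 CPM (shSCR) and 232 CPM (shCerS4), and the Caprin-1 libraries 278 and 152 CPM. Hnrnpd encodes AUF1, a protein that binds AU-rich elements and promotes mRNA decay, and its difference was −0.61 [−0.69, −0.53]. Pnisr and Nsrp1, which encode serine and arginine rich proteins of nuclear speckles, were among the 15 lowest genes at 20 CPM or more, at −0.93 [−1.19, −0.67] and −0.81 [−1.04, −0.60].

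The remaining genes among the 15 lowest at 20 CPM or more had mixed functions. Cd68 encodes a lysosomal membrane protein that is abundant in macrophages. Cd68 stood at 25.9 CPM with IgG and 49.1 CPM with Caprin-1 in shSCR cells, and at 14.9 and 14.6 CPM in shCerS4 cells. The shSCR Caprin-1 library was the high one, with a difference of −0.96 [−1.23, −0.69]. The summed leukocyte markers, of which Cd68 is 1 of the 3 with values, were 88.2 CPM in that library against 26.8 to 51.8 CPM in the others. Cd68 itself supplied 49.1 of the 88.2 CPM, so the sum is not separate from its value. The other leukocyte marker compared had a difference of 0.03. The part of other cells in the difference of Cd68 was not tested. Fxyd5, which encodes the cell adhesion modulator dysadherin, and Exosc2, which encodes a subunit of the RNA exosome, were at −0.91 [−1.10, −0.72] and −0.91 [−1.12, −0.71]. Lpcat4, an enzyme that adds acyl chains to lysophospholipids, stood at −0.92 [−1.14, −0.70]. Mterf4 (−0.87), a factor for assembly of mitochondrial ribosomes, Mfap1b (−0.90), Glrp1 (−0.86) and Zfp326 (−0.81), which encodes a protein that couples elongation to splicing, completed the group. Mfap1b has a near-identical copy, Mfap1a, so its value is uncertain where reads were split between them. Inhba and Bmp7, secreted ligands of the TGF-beta family, were the other 2 of the 15 and are described with their pathway.

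Cytosolic ribosomal protein genes showed small differences that nearly all had the same sign. Of 83 genes, 79 had a log2 difference below 0, as did 44% of all genes compared, and 70 had an interval below 0 with none above. No member reached 1.5-fold in either direction. The median was −0.19, with quartiles of −0.29 and −0.13 and a range of −0.53 to 0.07. The median log2 ratio was 0.30 in shSCR and 0.09 in shCerS4 cells, and 74 members had a ratio above IgG in shSCR cells against 52 in shCerS4 cells. These mRNAs are abundant, so their counting intervals were narrow. Ribosomal protein genes also have many near-identical pseudogenes, so the value of a single member is uncertain where reads were split between copies. In shSCR cells Rpl4 had 1916 CPM in the IgG and 3200.2 CPM in the Caprin-1 library, and in shCerS4 cells 2929 and 4427 CPM. It was the most abundant member and was above IgG in both lines, with a difference of −0.14 [−0.17, −0.12]. The level of Rps29 was 130.4 CPM (IgG) and 166 CPM (Caprin-1) in shSCR cells, against 156 and 146 CPM in shCerS4 cells. For Rps29 the Caprin-1 library was above IgG in shSCR cells and below it in shCerS4 cells, with a difference of −0.44 [−0.54, −0.34].

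Many ribosomal protein mRNAs begin with a terminal oligopyrimidine tract, a C followed by a run of pyrimidines at the cap, through which mTOR signalling controls their translation. The RefSeq windows around the annotated start, from 10 bases before it to 15 bases from it on, are shown for 5 abundant members. Each of these windows holds letters that match such a tract, the feature that these mRNAs are known to share. Each is written 5′ to 3′ on the gene's own strand (GRCm38.p6), with the matching letters in capitals. In Rpl6 the capitals lie wholly before the annotated start, and in Rpl13a they begin after it.
Fau (plus strand, chr19:6057937-6057961): gcccccaCTTCTTCCTCTTTCTTga
Rack1 (plus strand, chr11:48800350-48800374): gccgCTCTTTCTTTTTCTCCacagg
Rps9 (plus strand, chr7:3704031-3704055): cttgtCTCTCTTTgtctcgggcctg
Rpl13a (minus strand, chr7:45128731-45128755): cctgcgacaagaCCTCCTCCTTTCC
Rpl6 (plus strand, chr5:121204491-121204515): aCCTCCCgtcattgcttatagaccg

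The tract was searched on the gene's own strand as a C followed by at least 5 letters that are each C or T. It was found in 35 of 62 ribosomal protein genes with a window (56.5%), in 22.2% of the other 8230 compared genes with a window and in 18.5% of all 32851 windows of the same length. A match is a description of these letters, since an annotated start can lie some bases from the cap in use. The 5 genes shown had differences of −0.16 [−0.19, −0.13] for Fau, −0.09 [−0.12, −0.06] for Rack1, −0.19 [−0.23, −0.16] for Rps9, −0.18 [−0.22, −0.14] for Rpl13a and −0.32 [−0.37, −0.28] for Rpl6. Levels of Rpl6 were 534 CPM with IgG and 1013 CPM with Caprin-1 in shSCR cells, and 689 and 1043 CPM in shCerS4 cells, so that the IgG level differed more between the lines than the Caprin-1 level. Ribosomal protein genes with and without the tract had median differences of −0.20 and −0.19, and the other genes medians of 0.05 with it and 0.04 without it.

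Lists of other housekeeping genes were also on the lower side. Of 78 genes of mitochondrial ribosomal proteins, 37 intervals lay below 0 and 4 above, with a median of −0.17. Of 76 subunits of oxidative phosphorylation, 41 were below and 9 above, with a median of −0.16, and of 47 proteasome subunits, 23 and 7, with a median of −0.11. In these 3 lists, Caprin-1 stood above IgG for 73, 71 and 43 members in shSCR cells and for 67, 71 and 44 in shCerS4 cells, so Caprin-1 stood above IgG for most members in each line. For Mrpl30 the IgG libraries read 37.9 CPM (shSCR) and 61.5 CPM (shCerS4), and the Caprin-1 libraries 48.0 and 47.7 CPM. Mrpl30, a protein of the large mitochondrial subunit, crossed from above to below IgG, with a difference of −0.71 [−0.88, −0.53]. Ndufab1 stood at 22.7 CPM with IgG and 50.7 CPM with Caprin-1 in shSCR cells, and at 37.6 and 50.1 CPM in shCerS4 cells. Ndufab1, the acyl carrier protein of mitochondria, had the lowest difference among oxidative phosphorylation genes, at −0.75 [−0.95, −0.54]. Ndufb4, a subunit of complex I with low levels of 5.49 to 9.93 CPM, went the other way by 2-fold, at 1.34 [0.89, 1.801]. Among proteasome genes Psma3, a core subunit, was at −0.60 [−0.78, −0.42] and Psme4, which encodes the large activator PA200, at 0.69 [0.56, 0.81].

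Translation factors were closer to the background. Of 51 genes of initiation and elongation factors, 22 intervals lay below 0 and 12 above, none reached 1.5-fold, and the median was −0.07. Eef1a1, the elongation factor that carries tRNA to the ribosome and the most abundant of these mRNAs, was at −0.09 [−0.10, −0.08], and Eif3a, a large subunit of initiation factor 3, at −0.33 [−0.38, −0.29]. The host genes of small nucleolar RNAs had a median of −0.09 over 12 genes, with 3 intervals below 0 and 2 above. S100 genes, which encode small calcium-binding proteins, had a median of −0.28 over 8 genes with 5 intervals below 0 and 2 above. In shSCR cells S100a11 had 116 CPM in the IgG and 338 CPM in the Caprin-1 library, and in shCerS4 cells 108 and 225 CPM. S100a11, a member with roles in the cytoskeleton and membrane repair, was above IgG in both lines, with a difference of −0.48 [−0.58, −0.38].

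On the higher side, mRNAs of very large proteins had the highest median of the lists. Of 35 such genes, 28 had an interval above 0 and none below, 15 were higher by 1.5-fold and 4 by 2-fold. The median difference was 0.51. Those 4 were Birc6, Nbea, Lrba and Vps13b, and the list, like the others, was chosen with earlier results of these data known. None was above IgG in either line: their median log2 ratio was −1.61 in shSCR and −1.11 in shCerS4 cells. Birc6 (chr17:74528254-74703356) encodes BRUCE, a giant ubiquitin-conjugating enzyme that restrains apoptosis. The level of Birc6 was 59.5 CPM (IgG) and 13.7 CPM (Caprin-1) in shSCR cells, against 44.6 and 27.3 CPM in shCerS4 cells. The shSCR Caprin-1 library was the lowest and the shSCR IgG library the highest, and both shCerS4 libraries lay between them. The difference of 1.40 [1.18, 1.63], 2.65-fold, was the second highest among genes at 20 CPM or more. Nbea and Lrba encode related scaffold proteins with a BEACH domain that act in membrane traffic. For Nbea the IgG libraries read 23.7 CPM (shSCR) and 39.5 CPM (shCerS4), and the Caprin-1 libraries 5.59 and 20.6 CPM. Both of the shCerS4 libraries were higher than their shSCR counterparts, the Caprin-1 library more so, at 1.14 [0.83, 1.46]. Lrba stood at 26.9 CPM with IgG and 7.03 CPM with Caprin-1 in shSCR cells, and at 20.3 and 12.9 CPM in shCerS4 cells. Its difference was 1.28 [0.95, 1.61], with the same order of libraries as for Birc6. Vps13b encodes a bridge-like lipid transfer protein of the Golgi. In shSCR cells Vps13b had 49.0 CPM in the IgG and 13.7 CPM in the Caprin-1 library, and in shCerS4 cells 40.6 and 24.4 CPM. The order of libraries was again that of Birc6, with a difference of 1.10 [0.87, 1.34]. Ahnak, a scaffold protein and the most abundant of the list, had a difference of 0.44 [0.37, 0.51].

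The difference was ordered by the genomic span of the gene over all genes, as read from RefSeq starts and ends. The 10277 genes with a span were put into 10 bins of equal size. In the bin of shortest genes (275 to 4518 bases) the median difference was −0.11, in the bin of longest genes (at least 109632 bases) it was 0.17, and each bin's median was above that of the bin before it. Genes lower by 1.5-fold made up 4.67% of the shortest bin and 1.07% of the longest, and genes higher by 1.5-fold 2.04% and 9.14%. The ratio itself was ordered the other way. Its median went from 0.39 in the shortest bin to −0.79 in the longest in shSCR cells, and from 0.27 to −0.61 in shCerS4 cells, so the distance between short and long genes was smaller in shCerS4 cells. The median span was 3164 bases for the cytosolic ribosomal protein genes, 11645 for the nucleosome-binding genes and 157429 for the genes of giant proteins, against 23467 over all genes. The part of span, which differs from mRNA length, in the list results was not tested.

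**Figure D3:**
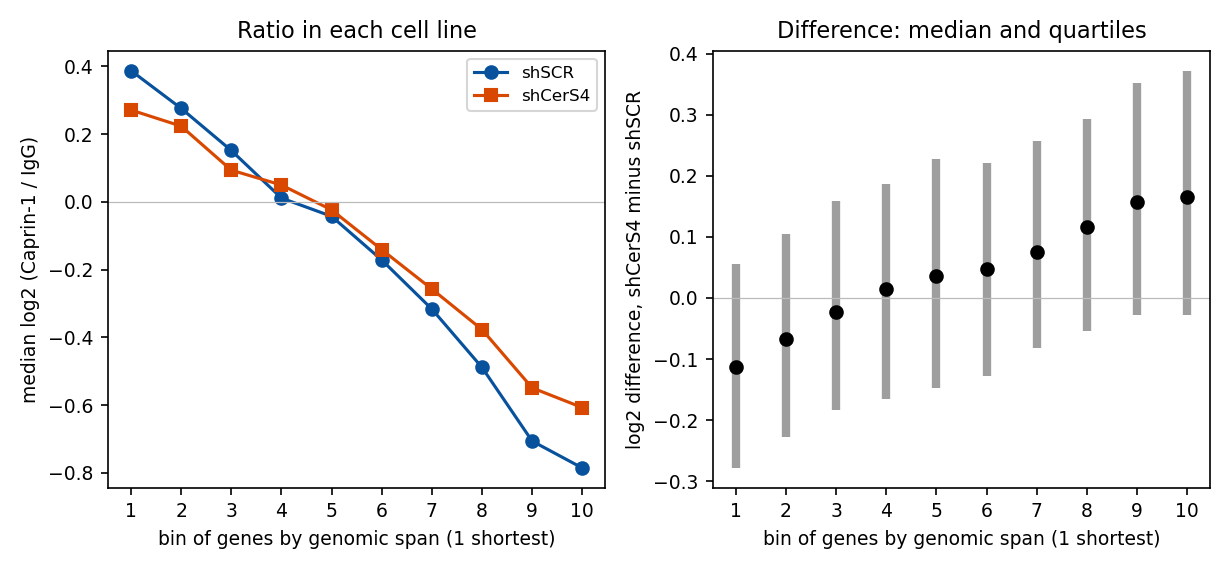
Genes in 10 bins of genomic span, from shortest (1) to longest (10). The left panel plots the median log2 Caprin-1 over IgG ratio in shSCR (blue) and shCerS4 (orange) cells, which goes from 0.39 to −0.79 and from 0.27 to −0.61. The right panel plots the median (point) and quartiles (bar) of the log2 difference, shCerS4 minus shSCR, whose medians go from −0.11 to 0.17.

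Integrin and matrix mRNAs were higher as groups of genes. Of 12 integrin genes, which encode the receptors that tie cells to the matrix, 10 had an interval above 0 and none below, 3 were higher by 1.5-fold, and the median was 0.40. The level of Itgav was 229.7 CPM (IgG) and 92.8 CPM (Caprin-1) in shSCR cells, against 259 and 187 CPM in shCerS4 cells. The alpha v subunit, a receptor for vitronectin and latent TGF-beta, had similar IgG levels in both lines and a higher Caprin-1 level in shCerS4 cells, at log2 ratios of −1.31 and −0.47 and a difference of 0.84 [0.75, 0.93]. For Itga2 the IgG libraries read 76.9 CPM (shSCR) and 83.3 CPM (shCerS4), and the Caprin-1 libraries 25.6 and 51.2 CPM. This subunit of a collagen receptor showed the same pattern, with a difference of 0.88 [0.71, 1.05]. Itgb3 stood at 47.9 CPM with IgG and 19.5 CPM with Caprin-1 in shSCR cells, and at 6.10 and 5.68 CPM in shCerS4 cells. The beta 3 subunit was low in both shCerS4 libraries, the IgG library more so, and its difference was 1.19 [0.80, 1.59], 2-fold or more. Itgb1, the beta subunit that most integrins share, was at 0.47 [0.43, 0.50].

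Of 24 genes of matrix proteins, 18 had an interval above 0 and none below, 3 were higher by 1.5-fold, and the median was 0.39. Agrn encodes agrin, a proteoglycan of basement membranes. In shSCR cells Agrn had 213 CPM in the IgG and 98.6 CPM in the Caprin-1 library, and in shCerS4 cells 353 and 252 CPM. Both shCerS4 libraries were higher than their counterparts, and the difference was 0.62 [0.54, 0.71]. The level of Lamb3 was 56.0 CPM (IgG) and 51.7 CPM (Caprin-1) in shSCR cells, against 63.3 and 86.2 CPM in shCerS4 cells. Lamb3, a chain of laminin in epithelial anchoring, went from just below to above IgG, at 0.56 [0.41, 0.71], and its partner chain Lama3 was at 0.69 [0.28, 1.09]. Spp1, which encodes osteopontin and was the most abundant of the list, had equal ratios, with −0.00 [−0.02, 0.02]. Outside the list, Col4a5 (chrX:141475370-141689236), a collagen chain of basement membranes, was among the 8 genes higher by 2-fold at 20 CPM or more, with Ptgds, Birc6, Cdsn, Nbea, Vps13b, Pkd1 and a gene known only by a clone symbol. For Col4a5 the IgG libraries read 87.8 CPM (shSCR) and 75.3 CPM (shCerS4), and the Caprin-1 libraries 27.6 and 51.7 CPM. The order of libraries was that of Birc6, with a difference of 1.13 [0.96, 1.30]. Proteases of invasion and their inhibitors had a median of 0.23 over 22 genes, with 12 intervals above 0 and 3 below. Adamts9, a protease that cleaves proteoglycans, was at 1.18 [0.63, 1.74] on levels of 2.44 to 9.08 CPM, while Timp1, which encodes an inhibitor of matrix proteases, was at −0.50 [−0.70, −0.30].

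The other genes among the 15 highest at 20 CPM or more included several with membrane or chromatin roles. Cdsn encodes corneodesmosin, an adhesion protein of cornified epithelium. Cdsn stood at 3.63 CPM with IgG and 1.74 CPM with Caprin-1 in shSCR cells, and at 49.3 and 58.4 CPM in shCerS4 cells. Both shCerS4 libraries were far above both shSCR libraries, and the shSCR ratio rested on 72 and 47 estimated reads, so the interval of the difference was wide, at 1.30 [0.74, 1.88]. In shSCR cells Pkd1 had 31.5 CPM in the IgG and 7.25 CPM in the Caprin-1 library, and in shCerS4 cells 28.2 and 13.2 CPM. Pkd1 encodes polycystin 1, a receptor-like protein of primary cilia, and its difference was 1.02 [0.71, 1.33]. Sorl1 (0.98 [0.72, 1.26]) encodes a sorting receptor of endosomes, Slc4a7 (0.95 [0.81, 1.09]) a sodium bicarbonate cotransporter and Ly75 (0.90 [0.69, 1.11]) the endocytic receptor DEC-205. Zfp516 (0.95), Adnp (0.91), Jade3 (0.90) and Mga (0.89) encode transcription or chromatin factors. Single transcripts ran from −1.71 to 2.88 for Adnp and were at −2.30 and 2.33 for Mga. C1s1, which encodes a protease that starts the complement cascade, was higher in both shCerS4 libraries, with a difference of 0.91 [0.60, 1.23]. Its 2 transcripts taken singly gave −0.002 and 1.21.

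The 4 highest differences of all genes compared, those of Apod, Coch, Apoe and Ptgds, belonged to genes that were high in the shSCR IgG library alone. Ptgds (chr2:25466709-25470110) encodes prostaglandin D synthase, an enzyme known from brain, meninges and inner ear. The level of Ptgds was 79.0 CPM (IgG) and 8.73 CPM (Caprin-1) in shSCR cells, against 15.8 and 13.99 CPM in shCerS4 cells. The shSCR IgG library was the only high one, and the difference was 3.002 [2.70, 3.31]. The same held for Apod (28.0 CPM there and 1.22 to 3.76 CPM elsewhere), Coch (19.7 CPM against 0.629 to 3.66 CPM), Apoe (16.4 CPM against 1.78 to 3.28 CPM) and S100b (15.5 CPM against 0.649 to 2.90 CPM). Apod and Apoe encode lipid carriers made by glia, Coch encodes cochlin of the inner ear and S100b a marker of glia. Their differences were 3.43 [2.67, 4.23], 3.35 [2.41, 4.39], 3.25 [2.60, 3.95] and 1.92 [0.83, 2.95]. Of the 65 genes higher by 2-fold, these 5 were in the set of 35 genes defined above, and 60 were counted without them. The set had 6 genes compared, and the other was Cdk6, at 1506 CPM in the shSCR IgG library and 101 to 361 CPM elsewhere. Cdk6 supplied most of the set's summed 1808 CPM in that library, and its difference was 0.31 [0.23, 0.38].

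Below the filter, the same set held further genes of nerve, inner ear and pigment cells, along with others such as Dnase1, Enpep and Zhx3. Otos, which encodes otospiralin of the cochlea, stood at 7.16 CPM in the shSCR IgG library and at 0.162 to 0.712 CPM in the others. Nefm and Nefh, which encode neurofilaments, were at 4.99 and 6.10 CPM against at most 0.527 and 0.111 CPM. Dct, an enzyme of melanin synthesis, was at 16.4 CPM against 0.444 to 0.730 CPM. A list of 20 such genes, chosen after their values were seen, summed to 245 CPM in the shSCR IgG library and 21.4 CPM in its Caprin-1 counterpart, and to 41.0 and 34.8 CPM in the shCerS4 IgG and Caprin-1 libraries. The part of RNA from other cells in the differences of Ptgds, Apod, Coch, Apoe and S100b was not tested.

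**Figure D4:**
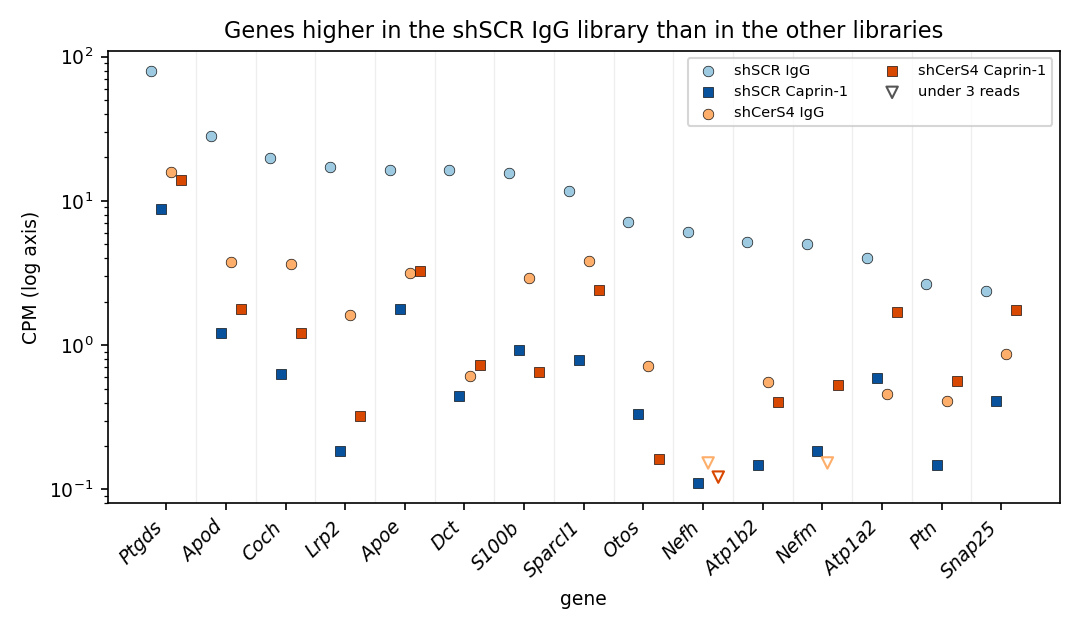
Level in CPM (log axis) of 15 genes that were higher in the shSCR IgG library than in the others, chosen after their values were seen. Circles are IgG and squares Caprin-1 precipitates, blue for shSCR and orange for shCerS4 cells, and open triangles mark values under 3 estimated reads, drawn at that level. The shSCR IgG circle is the highest for every gene shown, from 79.0 CPM for Ptgds to 2.37 CPM for Snap25.

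Lipid genes, which the knockdown concerns most directly, were mostly near the background, and the list of sterol and fatty acid synthesis lay above it. Of the ceramide synthases 3 were compared. For Cers6 the IgG libraries read 41.9 CPM (shSCR) and 58.6 CPM (shCerS4), and the Caprin-1 libraries 13.3 and 27.9 CPM. Cers6, which makes ceramide with palmitoyl chains, was below IgG in both lines and nearer to it in shCerS4 cells, with a difference of 0.58 [0.36, 0.81], but its most abundant transcript alone gave −0.08. Cers2 stood at 215 CPM with IgG and 243 CPM with Caprin-1 in shSCR cells, and at 342 and 389 CPM in shCerS4 cells. Cers2, which makes very long chain ceramide, was higher in both shCerS4 libraries by similar amounts, so that the difference was 0.01 [−0.06, 0.09]. Cers5 was at 0.12 [−0.03, 0.27]. Of 37 sphingolipid enzyme genes, 14 intervals lay above 0 and 1 below, with a median of 0.09. In shSCR cells Smpd2 had 31.5 CPM in the IgG and 38.4 CPM in the Caprin-1 library, and in shCerS4 cells 29.7 and 57.4 CPM. Smpd2, a neutral sphingomyelinase that releases ceramide from sphingomyelin, was the 1 member higher by 1.5-fold, at 0.66 [0.46, 0.87]. Samd8, a ceramide phosphoethanolamine synthase, had a difference of 0.53 [0.34, 0.72], which was −0.31 from its most abundant transcript alone, and Glb1, the lysosomal beta-galactosidase, 0.36 [0.25, 0.47].

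Of 39 genes of cholesterol and fatty acid synthesis, 20 intervals lay above 0 and 3 below, 4 were higher and 1 lower by 1.5-fold, and the median was 0.19. The level of Acss2 was 51.3 CPM (IgG) and 44.5 CPM (Caprin-1) in shSCR cells, against 29.0 and 41.3 CPM in shCerS4 cells. Acss2, which makes acetyl-CoA from acetate, went from below to above IgG, at 0.72 [0.52, 0.91]. Idi1 (chr13:8885606-8892396), an isomerase of sterol synthesis, was the exception. For Idi1 the IgG libraries read 19.2 CPM (shSCR) and 7.07 CPM (shCerS4), and the Caprin-1 libraries 14.6 and 1.79 CPM. Both shCerS4 libraries were below both shSCR libraries, the Caprin-1 library more so, and the difference of −1.58 [−2.15, −1.05] was the lowest of the genes named under 20 CPM. Scd2, a desaturase and the most abundant of the list, was at 0.24 [0.21, 0.27].

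Summed over transcripts, the mRNAs of the complex and of Caprin-1 partners showed little difference. Cd274 stood at 324 CPM with IgG and 377 CPM with Caprin-1 in shSCR cells, and at 101 and 127 CPM in shCerS4 cells. PD-L1 mRNA was thus about as much lower in the IgG as in the Caprin-1 library of shCerS4 cells, and its difference was 0.11 [0.02, 0.21]. In shSCR cells Caprin1 had 552 CPM in the IgG and 392 CPM in the Caprin-1 library, and in shCerS4 cells 405 and 309.7 CPM. Its own mRNA had a difference of 0.11 [0.05, 0.17], and −0.09 from its most abundant transcript alone. The level of G3bp1 was 516 CPM (IgG) and 522 CPM (Caprin-1) in shSCR cells, against 306 and 308 CPM in shCerS4 cells. G3bp1 had ratios near 0 in both lines and a difference of −0.01 [−0.07, 0.06]. G3bp2 was at 0.08 [−0.01, 0.17] and Fmr1, which encodes FMRP, at 0.20 [0.04, 0.35]. The most abundant Fmr1 transcript alone gave 1.04. Of 40 genes of stress granule and Caprin-1 partner proteins, 18 intervals lay above 0 and 10 below, none reached 1.5-fold, and the median was 0.09. For Ybx1 the IgG libraries read 448 CPM (shSCR) and 471 CPM (shCerS4), and the Caprin-1 libraries 583 and 443 CPM. Ybx1, a cold shock domain protein that packages mRNA, crossed from above to below IgG with the lowest difference of the list, −0.47 [−0.52, −0.41], and Prrc2b, a protein of stress granules, had the highest, at 0.53 [0.41, 0.66].

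Of 12 mRNAs described as Caprin-1 targets 8 were compared, with 4 intervals above 0, 2 below and a median of 0.10. Myc encodes the growth-promoting transcription factor. Myc stood at 209 CPM with IgG and 229.6 CPM with Caprin-1 in shSCR cells, and at 387 and 366 CPM in shCerS4 cells. Both shCerS4 libraries were higher than their shSCR counterparts, the IgG library more so, and the difference was −0.22 [−0.29, −0.14]. In shSCR cells Ccnd2 had 134 CPM in the IgG and 37.7 CPM in the Caprin-1 library, and in shCerS4 cells 267 and 90.2 CPM. Ccnd2, which encodes the G1 cyclin D2, was far below IgG in both lines, at log2 ratios of −1.82 and −1.57 and a difference of 0.26 [0.13, 0.39]. Map1b, which encodes a microtubule-binding protein, was the 1 member past 1.5-fold, at 0.72 [0.52, 0.92], and Creb1, a transcription factor, was at 0.54 [0.42, 0.67]. Actb was above IgG in both lines with −0.20 [−0.22, −0.18].

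In signalling pathways, the members differed in direction. Of 36 genes of TGF-beta and BMP signalling, 16 intervals lay above 0 and 8 below, with a median of 0.13, and the 3 genes lower by 1.5-fold were all ligands. The level of Inhba was 71.2 CPM (IgG) and 29.3 CPM (Caprin-1) in shSCR cells, against 139.6 and 31.5 CPM in shCerS4 cells. Inhba, which encodes a subunit of activin, was higher in the shCerS4 IgG library and about level in the Caprin-1 libraries, with a difference of −0.87 [−1.04, −0.70]. For Bmp7 the IgG libraries read 72.5 CPM (shSCR) and 67.1 CPM (shCerS4), and the Caprin-1 libraries 62.7 and 32.7 CPM. Bmp7 had a low shCerS4 Caprin-1 value and a difference of −0.83 [−0.99, −0.67]. Tgfb2 was the third, at −0.81 [−1.26, −0.38]. Among receptors, Tgfbr1, the type I TGF-beta receptor, was at 0.25 [0.12, 0.38], which turned to −0.42 with its most abundant transcript alone. Smad5, a transducer of BMP signals, was at 0.64 [0.54, 0.75].

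Of 36 genes of the Wnt pathway, 13 intervals lay above 0 and 2 below, with a median of 0.10. Ctnnb1 stood at 2444 CPM with IgG and 1387 CPM with Caprin-1 in shSCR cells, and at 1831 and 1516 CPM in shCerS4 cells. Ctnnb1, which encodes beta-catenin of the Wnt pathway and of adherens junctions, was the most abundant member and below IgG in both lines, with a difference of 0.54 [0.52, 0.57]. Lef1 and Tcf7, the nuclear partners of beta-catenin, were on opposite sides at −0.66 [−1.28, −0.04] and 0.55 [0.22, 0.89], on levels of 2.44 to 24.96 CPM. The 2 Tcf7 transcripts taken singly gave −2.52 and 3.55. Of 13 Hedgehog pathway genes, 6 intervals lay above 0 and 3 below, with a median of 0.19, and the 3 higher by 1.5-fold were Kif7, Cdon and Boc. In shSCR cells Cdon had 38.9 CPM in the IgG and 12.7 CPM in the Caprin-1 library, and in shCerS4 cells 52.7 and 31.4 CPM. Cdon, a co-receptor for Hedgehog ligands, was below IgG in both lines, with a difference of 0.87 [0.64, 1.10], and its relative Boc was at 0.67 [0.13, 1.21]. Kif7, a ciliary kinesin that controls Gli proteins, was at 0.92 [0.49, 1.36] from the sum of its transcripts and at −0.32 from the most abundant alone. Hippo pathway genes had a median of −0.02 over 21 genes, with 6 intervals above 0 and 5 below.

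Immune genes showed no common direction. Of 40 genes of interferon response and antigen presentation, 14 intervals lay above 0 and 8 below, with a median of 0.06. The level of Stat2 was 28.6 CPM (IgG) and 13.7 CPM (Caprin-1) in shSCR cells, against 27.1 and 22.8 CPM in shCerS4 cells. Stat2, a transcription factor of the type I interferon response, was higher at 0.81 [0.55, 1.07], and the RNA sensor Ddx58 was at 0.66 [0.47, 0.86]. Ifit3, an interferon-induced gene, was lower at −1.06 [−1.73, −0.44] on levels of 1.89 to 8.25 CPM. Class I genes of high level had similar ratios in both lines, with 0.06 [0.03, 0.08] for H2-D1 and 0.03 [−0.02, 0.09] for H2-K1. For H2-Q9 the IgG libraries read 5.45 CPM (shSCR) and 1.86 CPM (shCerS4), and the Caprin-1 libraries 7.07 and 9.84 CPM. H2-Q9, a nonclassical class I gene, was lowest in the shCerS4 IgG library and highest in the shCerS4 Caprin-1 library, with a difference of 2.01 [1.41, 2.67]. H2-T9, another such gene, was at 1.62 [1.12, 2.14], and the class II gene H2-Ab1 at −1.43 [−2.09, −0.82]. The class I genes have near-identical copies between which reads can be split, so their values are uncertain. Of 20 chemokine and cytokine genes, 5 intervals lay below 0 and 1 above, and Ccl2 (−0.78 [−1.17, −0.42]), Tnfsf9 (−0.77 [−1.15, −0.39]) and Ccl5 (−0.69 [−1.01, −0.37]) were lower by 1.5-fold. Ccl2 stood at 4.59 CPM with IgG and 11.4 CPM with Caprin-1 in shSCR cells, and at 32.3 and 46.5 CPM in shCerS4 cells. Ccl2, which attracts monocytes, was above IgG in both lines, and both its shCerS4 libraries were the higher ones. Checkpoint ligand genes had a median of −0.05 over 8 genes, with 2 intervals above 0 and 1 below.

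Proliferation genes had medians near that of all genes and single members on either side. The median was 0.05 over 46 genes of DNA replication, with 18 intervals above 0 and 12 below, and 0.01 over 39 genes of G2 and mitosis, with 9 above and 11 below. In shSCR cells Pole had 41.4 CPM in the IgG and 21.4 CPM in the Caprin-1 library, and in shCerS4 cells 11.03 and 10.1 CPM. Pole, the catalytic subunit of a replicative polymerase, was lower in both shCerS4 libraries, the IgG library more so, with a difference of 0.83 [0.52, 1.14], and Pold1 of the other replicative polymerase was at 0.59 [0.42, 0.75]. The level of Ndc80 was 57.7 CPM (IgG) and 89.5 CPM (Caprin-1) in shSCR cells, against 30.5 and 28.2 CPM in shCerS4 cells. Ndc80, a kinetochore protein, went from above IgG to about level with it, at −0.75 [−0.94, −0.56], and Incenp of the chromosomal passenger complex was at −0.60 [−0.72, −0.49]. Among 51 genes of the DNA damage response, 19 intervals lay above 0 and 8 below, with a median of 0.15. Atr, the kinase of replication stress, was at 0.75 [0.44, 1.07] and Nbn, a subunit of the complex that senses double-strand breaks, at −0.87 [−1.18, −0.57].

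Further lists had medians of −0.10 to 0.11, against 0.04 over all genes. Genes of the unfolded protein and integrated stress response had a median of 0.07 over 38 genes, with 14 intervals above 0 and 8 below. For Ddit3 the IgG libraries read 40.6 CPM (shSCR) and 276 CPM (shCerS4), and the Caprin-1 libraries 46.4 and 217 CPM. Ddit3, which encodes the stress factor CHOP, was higher in both shCerS4 libraries, the IgG library more so, so that its difference was −0.54 [−0.68, −0.40]. Hspa5, the chaperone BiP, was at 0.17 [0.15, 0.20]. Medians were 0.01 for 28 immediate early genes, 0.11 for 22 NF-kappaB genes, 0.02 for 31 heat shock chaperones, 0.09 for 31 genes of glycolysis and the pentose phosphate pathway, 0.04 for 41 lysosomal genes, 0.01 for 29 genes of NRF2, glutathione and aldehyde dehydrogenases, 0.01 for 28 keratin, claudin and epithelial genes, −0.10 for the 11 mammary epithelial markers, 0.01 for 9 prostaglandin enzymes and −0.00 for 26 transcription elongation genes. In the last of these, Ccnk, a cyclin of elongation kinases, was at −0.62 [−0.77, −0.47] and Aff4, a scaffold of the super elongation complex, at 0.54 [0.45, 0.62]. Intervals lay above 0 for 51.6% of the glycolysis and pentose phosphate genes and below 0 for 16.1%, against 29.1% and 20.7% of all genes. For the mammary epithelial markers these shares were 18.2% and 45.5%. The 10 nuclear and architectural lncRNAs had a median of −0.04, and none was above IgG in either line. Malat1, which resides in nuclear speckles, had log2 ratios of −2.37 and −2.03.

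A run of neighbouring genes on chromosome 5 that includes Abcb1b was much lower in both precipitates of shCerS4 cells. Abcb1b stood at 2535 CPM with IgG and 1408 CPM with Caprin-1 in shSCR cells, and at 80.8 and 47.8 CPM in shCerS4 cells. As the IgG and Caprin-1 libraries were lower to a similar degree, the difference for this drug exporter gene was 0.09 [−0.02, 0.20]. Over 25 genes of that run the median was 0.06, 7 intervals lay above 0 and 4 below, and none reached 1.5-fold.

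**Figure D5:**
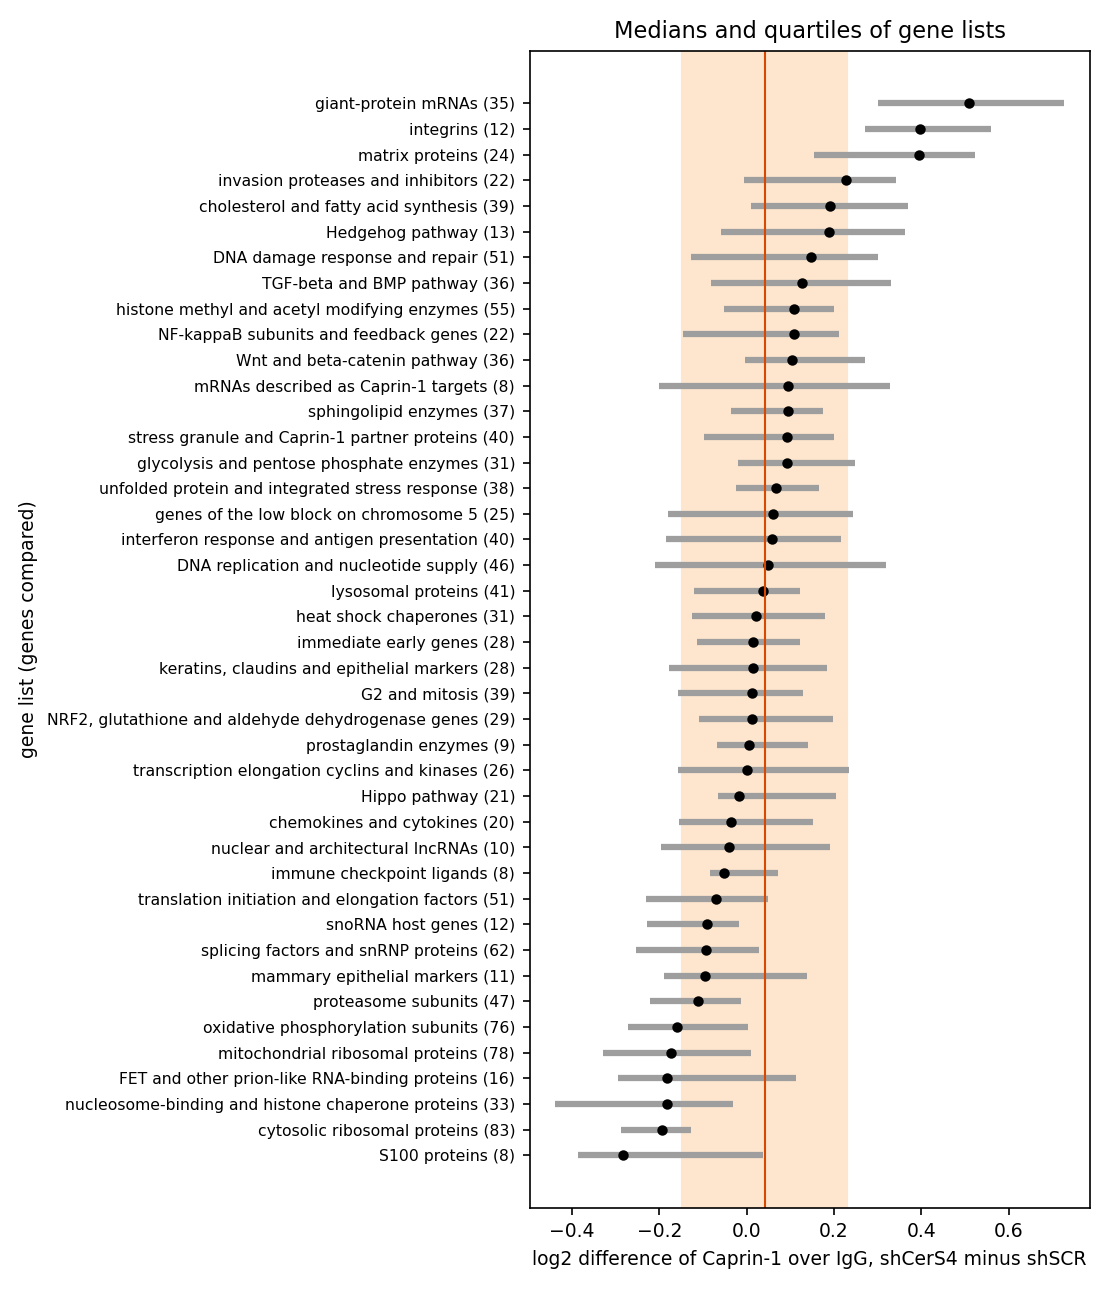
Median (point) and quartiles (grey bar) of the log2 difference, shCerS4 minus shSCR, for each gene list with at least 8 genes compared, with the number of genes in parentheses. The orange line marks the median of all genes, 0.04, and the shaded band their quartiles, −0.15 and 0.23. Genes of giant proteins (0.51), integrins (0.40) and matrix proteins (0.39) are at the top, and cytosolic ribosomal proteins (−0.19) and S100 proteins (−0.28) at the bottom.

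Under 20 CPM, where most of the 2-fold differences lay, each value rested on fewer reads. Of genes between 5 and 10 CPM, 963 in number, 49 were higher and 25 lower by 2-fold. Prr7 and Sipa1l2, which encode proteins known from synapses and the postsynaptic density, were among the highest named, at 1.71 [1.16, 2.28] and 1.52 [0.92, 2.16]. In shSCR cells Sipa1l2 had 4.99 CPM in the IgG and 1.70 CPM in the Caprin-1 library, and in shCerS4 cells 7.32 and 7.22 CPM. The shSCR Caprin-1 library was the low one for Sipa1l2. Its 2 transcripts taken singly gave −8.50 and 6.50, so the value of the gene joins opposite ones. Among the lowest were Pet100, a factor for the assembly of cytochrome oxidase, at −1.51 [−2.02, −1.01], Mmaa, a protein of vitamin B12 metabolism, at −1.51 [−2.11, −0.95], and Tubb4a, a beta-tubulin, at −1.50 [−2.11, −0.91]. Nexn, an actin-binding protein, was at −1.43 [−1.87, −0.998] and Gch1, the first enzyme of tetrahydrobiopterin synthesis, at −1.28 [−1.90, −0.70]. Rmrp, the RNA component of the RNase MRP, was at −1.28 [−1.91, −0.68]. The level of Mmaa was 2.20 CPM (IgG) and 6.27 CPM (Caprin-1) in shSCR cells, against 9.002 and 8.95 CPM in shCerS4 cells. For Mmaa the shSCR IgG library was the low one and the other libraries lay between 6.27 and 9.002 CPM.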

How the data were processed

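RNA from 4 precipitates of 4T1 cells was sequenced, 1 library per group. Reads were aligned with STAR and processed in Partek against mm10, per the submitters' processing notes, with versions, strand and counting rule not given in the sources used here. The deposited table holds CPM per transcript with 0.0001 added to each value. The planned design allowed for CPM in place of counts, with reads estimated from the CPM of 1 read. The offset was subtracted, and 24393 transcripts were summed to 12967 symbols, of which 10283 with a mean of at least 5 CPM were compared.

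The step between neighbouring low values gave the CPM of 1 read and from it the depths, 19.8 M reads (IgG) and 27.0 M (Caprin-1) for shSCR cells, and 19.7 M and 24.7 M for shCerS4 cells. Below 40 CPM, 79.8 to 81.2% of gene values and 28.9 to 31.4% of transcript values came out whole to within 0.05 reads. A count of 3 reads was 0.111 to 0.152 CPM. Log2 ratios used 0.5 added reads and library totals. Intervals are exact 95% Clopper-Pearson intervals of each line's ratio, combined for the difference, and rest on the estimated reads. They cover counting error only, since each group has 1 library. Reads were amplified without molecular identifiers, so the intervals may be too narrow even for that error. A gene counts as past a threshold when its fold (2 or 1.5) is reached and its interval excludes 0. The calculation was tested on simulated data.

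Spans, positions and start-site windows came from RefSeq tables of GRCm38.p6, the mm10 assembly, in which 12957 symbols matched. The 46 gene lists, 5 of whose genes were matched by a synonym, the genes named in any case and the naming rule were chosen with earlier results of these data known. The rule took 14 genes in any case, of which 2 were not analysed here, the 15 highest and 15 lowest differences past 1.5-fold at 20 CPM or more without predicted genes, the 8 highest and 8 lowest past 2-fold between 5 and 20 CPM with at least 10 reads in each library, genes past a fixed margin on opposite sides of IgG in the 2 lines, and in each list the gene of highest level beside the 4 or fewer most different genes whose interval excludes 0. Not all of them are described, and some genes are not reported here. Genes of the shSCR IgG library, further class I genes and the 20 genes of nerve and inner ear were named after their values were seen. Alternatives were scaling by the upper quartile, the trimmed mean, the median of ratios or totals without the 50 most abundant genes, no filter or a filter at 20 or 1 CPM, thinning to equal depth, 5 added reads, no interval, 1.5-fold, the most abundant transcript, genes with 1 transcript and, chosen after seeing the data, leaving out the genes high in the shSCR IgG library alone. Python 3.11.15, numpy 2.4.6, pandas 2.3.3 and scipy 1.17.1 were used.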

Additional observations from a re-analysis of the deposited data

Results flagged for a closer look

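For 5 genes at 20 CPM or more the Caprin-1 level lay above IgG in one cell line and below it in the other, past the margin of the naming rule and with both counting intervals excluding 0. With 1 library per group this difference between the lines was not tested. In shSCR cells Atp13a2, which encodes a lysosomal polyamine transporter, was below IgG at 24.1 against 30.5 CPM. In shCerS4 cells Atp13a2 was above IgG at 31.8 against 23.9 CPM, a log2 difference of 0.754 (0.52 to 0.99). Its single transcripts ran from −3.34 to 1.68. Fam149b was likewise below IgG in shSCR and above it in shCerS4 cells, with a log2 difference of 0.659 (0.46 to 0.86). The other 3 went from above to below IgG. Cwc27, a spliceosome-associated isomerase, had a log2 difference of −0.713 (−0.97 to −0.45), on 22.3 against 17.5 CPM in shSCR and 21.8 against 28.0 CPM in shCerS4 cells. Mrpl30 stood at −0.708 (−0.88 to −0.53). Hmgn3 stood at −0.691 (−0.94 to −0.45), on 35.9 against 28.3 CPM in shSCR and 17.8 against 22.7 CPM in shCerS4 cells.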

How the results depend on the processing

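Another scaling shifts every log2 difference by the same amount, and the median over all genes was 0.041 with library totals, 0.034 with the trimmed mean, 0.008 with median of ratios and 0.009 with the upper quartile. The counts of genes past 2-fold were 55 to 61 higher and 38 to 44 lower with these scalings and with totals without the 50 most abundant genes. They were 56 and 29 with 5 added reads, 60 and 33 after thinning, and 65 and 38 with no condition on the interval. The counts depended on the filter and the threshold, with 224 higher and 172 lower from 1 CPM, 449 and 317 with no filter, 8 and 3 from 20 CPM, and 435 and 268 at 1.5-fold. They also depended on how transcripts were joined, with 277 higher and 174 lower of 10037 genes from each gene's most abundant transcript. The cause of that result was not tested. Transcripts of a gene could also disagree where the sign of the gene held, as for Tardbp, at −5.80 to 5.17. Keeping only the 5313 genes with 1 transcript left each value as it was, and 43 of the 65 higher and 27 of the 36 lower genes were among them. Without the genes high in the shSCR IgG library alone the counts were 60 and 36. Over the gene lists, 513 of the medians recomputed under an alternative moved by less than their members' median half-interval and 3 moved by more: ceramide synthases to 0.58 with no filter, the Hippo pathway to 0.20 and integrins to 0.65 among genes with 1 transcript. The medians closest to 0 changed sign with another scaling (G2 and mitosis, immediate early, heat shock, epithelial, NRF2 and prostaglandin genes) or another choice of transcripts (Hippo, checkpoint ligand and nuclear lncRNA genes). Of the named genes' recomputed differences 2870 stayed within the counting interval and 73 moved beyond it, and 10 whose interval excluded 0 turned sign, all with the most abundant transcript: Caprin1 to −0.090, Cers6 to −0.079, Tgfbr1 to −0.416, Samd8 to −0.313, Spop to 0.094, Kif7 to −0.32, Espl1 to −0.184, Pfkfb3 to −0.257, Pfkm to −1.07 and H2-Q6 to −0.069. A further 6, whose interval included 0, also changed sign: Ehmt2 to 0.36, Csf1 to −0.058 and H2-T22 to −0.002 with the most abundant transcript, and Cers2, Dbf4 and H2-Q1 to values of −0.028 to −0.001 over scalings, thinning or the most abundant transcript. Some of the 2870 could not move, because a setting that only changes which genes are kept leaves the difference of each gene as it was. These were 261 with no filter, 261 from 1 CPM and 204 from 20 CPM. Genes with 1 transcript gave 152 of them, and leaving out the shSCR IgG genes 255. No paired analysis was possible because each group has 1 library and the labels give no replicate numbers, and for the same reason no replicate could be left out.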
